A study of Mus musculus with 34 samples.

Results

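The 8 genes described here encode replacement histones, the variants that can be laid into chromatin outside DNA replication: H3f3a and H3f3b (both for H3.3), H2afz and H2afv (both for H2A.Z), H2afx, H2afy, H2afj and H1f0. They were taken by name, as replication-independent histone variant genes with polyadenylated mRNA, from a table of 51368 gene identifiers, and all 8 were present and passed the filter on low counts in every comparison. The names come from matching the identifiers to GENCODE M21. In 33 liver libraries and 1 heart library the series compared ways of keeping ribosomal RNA out of RNA-seq, together with the PCR ramp rate and the fragment length.

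The labels' protocols name a single wild-type C57BL/6J mouse, 12 weeks old, as the source of liver and heart. The protocol text calls it male and the sample labels say female, so its sex is not stated here. The selected liver libraries were made from 200 ng of total RNA by polyA selection (9 libraries, batch 1), rRNA pull-down (9, batch 2) or rRNA digestion (9, batch 2). Each set of 9 crosses slow, medium and fast ramps with short, medium and long fragments, so every combination has 1 library per method. Unselected liver RNA was made into libraries from 20 ng with a slow ramp and medium fragments, 3 in batch 1 and 3 in batch 2, and unselected heart RNA into 1 library in batch 1. Selection and input amount therefore cannot be told apart in any comparison with unselected RNA. Because only 1 animal is named, the p-values below measure the spread between libraries and not between animals.

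Canonical histones are made in S phase from intronless genes whose mRNAs end in a conserved stem-loop in place of a poly(A) tail. Replacement histone genes are transcribed through the cell cycle and in cells that no longer divide, such as most adult hepatocytes, and their mRNAs usually carry a poly(A) tail. H3.3 is placed at active genes and at telomeres by separate chaperone systems, H2A.Z is exchanged at promoters by the SRCAP and p400 remodellers, and phosphorylated H2A.X marks DNA double-strand breaks.

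The stem-loop was searched for in the longest annotated coding transcript of each gene, because it divides the 2 kinds of histone mRNA and polyA selection reads that division. The motif was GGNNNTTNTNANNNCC on the transcript strand, with the first and last 6 bases required to pair. It was found in 1 of the 8 genes (12.5%), H2afx, in 67.2% of 67 coding replication-dependent histone genes and in 0.313% of all 21693 coding genes. The sequences below are from the GRCm38 annotation, 5′ to 3′, with the paired stem in capitals and the loop in lower case. H2afx stands beside 3 replication-dependent genes that carry the commonest stem-loops.
H2afx: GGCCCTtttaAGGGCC
Hist1h1e: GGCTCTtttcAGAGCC
Hist1h4d: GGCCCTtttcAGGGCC
Hist1h3e: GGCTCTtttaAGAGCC
The first of these replication-dependent forms occurred in 25 genes, the next in 7 and the last in 6. H2afx shares its stem with Hist1h4d and its loop with Hist1h3e. Its stem-loop lies in the 3′ UTR of a gene with a single exon, on chromosome 9 at 44335240 to 44335255 (GRCm38), 46 bases after the stop codon. The annotated transcript runs on for 822 bases past it. H2afx is known to make both a short mRNA ending at the stem-loop and a longer polyadenylated mRNA, and gene-level counts do not separate them. A poly(A) signal, AATAAA or ATTAAA in the last 50 bases of the same transcripts, was found in 6 of the 8 genes (not in H3f3b or H2afy), against 25.4% of replication-dependent and 72.5% of all coding genes. These matches describe the annotated letters only.

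On GRCm38, H3f3a is on the minus strand of chromosome 1 (180800832 to 180813943), H3f3b on the minus strand of chromosome 11 (116021912 to 116027962), H2afv on the same strand of chromosome 11 (6427229 to 6444443) and H2afz on the plus strand of chromosome 3 (137864487 to 137866922). H2afx is on the plus strand of chromosome 9 (44334694 to 44336077), H2afy on the minus strand of chromosome 13 (56073619 to 56136361), H2afj on the plus strand of chromosome 6 (136808244 to 136810074) and H1f0 on the plus strand of chromosome 15 (79028450 to 79030504). H2afx, H2afj and H1f0 have 1 exon in their longest coding transcript, and the other 5 genes have 4 to 9. The H2afx transcript is 62.3% G and C, a higher share than in 98.2% of coding genes. Copies with at least 90% identity over 200 bases were counted as sources of uncertain counts. H3f3a has 37 such copies, each with at most 10.7 counts in any library, while the H2afz copy Gm8203, identical over 387 bases, reached 186.2 counts. H2afx and H2afj match each other and many canonical H2A genes, and how reads were shared among them was not tested.

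Total counts ran from 19.87 M to 41.4 M per library except in 1 pull-down library (long fragments, slow ramp), which held 1.126 M. The hepatocyte markers summed to at least 49940 normalised CPM in every liver library and 180.8 in heart, and the cardiomyocyte markers to at most 1.011 in liver and 24560 in heart, as labelled. Normalised CPM are CPM after TMM scaling over all 34 libraries. In the unselected liver libraries 1 normalised CPM stood for 4.64 to 5.006 counts. H2afx had 13 to 22 counts and H2afj 18 to 30 in each unselected liver library.

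In the shallow pull-down library, H2afj stood at 32.3 normalised CPM from 41 counts, against 3.37 to 7.12 in the other 8 pull-down libraries, and H2afx at 10.2 from 13 counts, against 1.99 to 3.17. H3f3a was the lowest of its group there, at 52.0 against 65.2 to 75.2. Results that rest on the pull-down group are given with and without this library where the call differs.

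Per kilobase of annotated exon, H1f0 was the most abundant of the 8 mRNAs in unselected liver of batch 1. H1f0, the linker histone of cells that have stopped dividing, had 23.0 ± 0.875 normalised CPM per kilobase (SD, n = 3). H3f3b followed with 17.4 ± 0.944, H3f3a with 13.5 ± 0.369 and H2afz with 10.2 ± 1.19. H2afv had 7.15 ± 1.01 and H2afy, which encodes macroH2A1 with its large non-histone domain, 4.77 ± 0.603. H2afj had 2.79 ± 0.461 and H2afx 2.61 ± 0.275, and these 2 neighbours differed by less than their SDs. The order below H3f3b depends on the length used. Divided by the longest coding transcript instead of all annotated exon bases, H2afy stood at 15.9 per kilobase, H2afz at 16.9 and H3f3a at 16.6. In unselected liver of batch 2, H1f0 (21.5) was above H3f3b (19.6) by annotated exon bases. By longest transcript H3f3b (23.2) was above H1f0 (21.5) there.

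**Figure D1:**
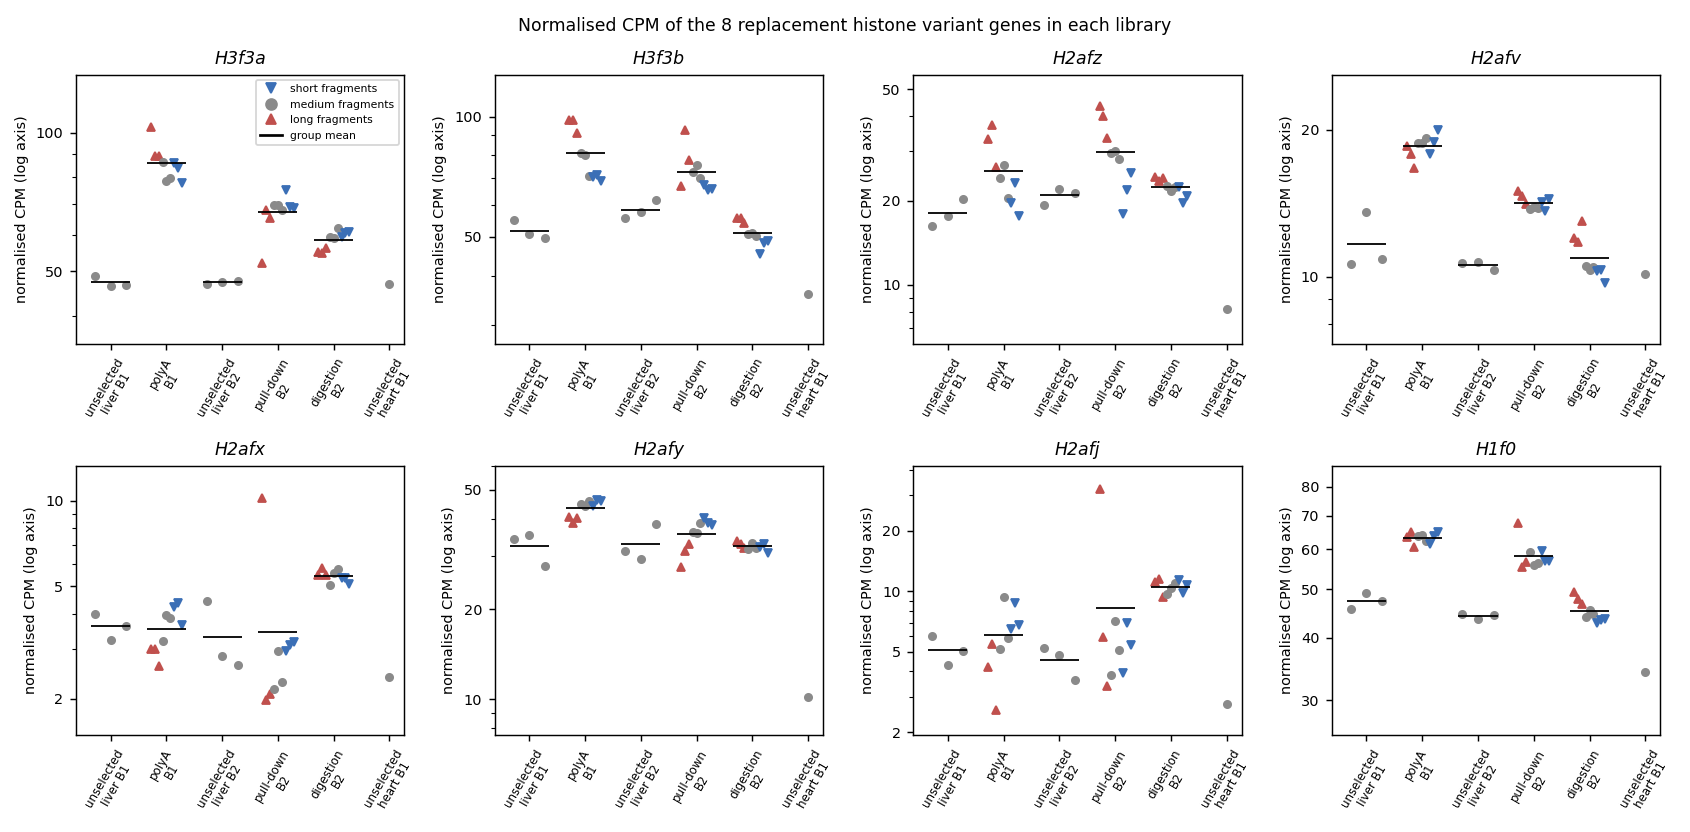
Normalised CPM (log axis) of each gene in every library, by method and batch; symbols give the fragment length and black lines the group means. H3f3a lies between 77.71 and 103.1 in all 9 polyA libraries and between 46.33 and 48.74 in the 6 unselected liver libraries, while the medians of H2afx (5.477) and H2afj (10.7) are highest in digestion.

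PolyA selection was set against unselected liver RNA of the same batch to see how selecting tails changes each mRNA. Of the 8 genes 6 rose and none fell, while 42 of 58 tested canonical histone mRNAs fell. The background was 50.4% of 15422 genes called at adjusted p under 0.05, 25.6% higher and 24.8% lower (edgeR quasi-likelihood, Benjamini-Hochberg over all genes). The median log2 fold change was 0.44 over the 8 members and 0.04 over all genes tested.

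Of the H3.3 genes, H3f3a had 48.7, 46.3 and 46.7 normalised CPM in unselected RNA and a lowest, median and highest of 77.7, 86.1 and 103.1 in polyA libraries. The groups did not overlap, and the log2 fold change was 0.88 (SE 0.08, edgeR adjusted p = 4.12e-10). The share of all genes whose groups do not overlap was not counted, here or below. H3f3b had 54.9, 50.9 and 49.5 unselected and 68.9, 79.9 and 98.0 after selection, again without overlap, a log2 fold change of 0.60 (SE 0.07, edgeR adjusted p = 1.73e-08). Of the H2A.Z genes, H2afv had 10.6, 13.6 and 10.9 unselected against 16.7, 18.8 and 20.0, and rose by 0.64 (SE 0.10, edgeR adjusted p = 4.76e-06). H2afz spread from 17.6 to 37.3 in polyA libraries and overlapped the unselected values of 16.2, 17.7 and 20.3. Its log2 fold change of 0.44 (SE 0.17, edgeR adjusted p = 0.0313) missed the threshold with size factors of the DESeq2 type (0.37, adjusted p = 0.0699), with library totals (0.30, 0.150) and without unselected replicate 1 (0.36, 0.142) or 2 (0.42, 0.0867). H2afy (0.45) and H1f0 (0.43) also rose, with edgeR adjusted p of 7.78e-05 and 9.21e-08.

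H2afx and H2afj did not pass the test. H2afx had 3.99, 3.23 and 3.63 normalised CPM in unselected RNA and 2.61, 3.65 and 4.36 in polyA libraries, so the ranges overlapped throughout (log2 fold change −0.06, SE 0.28, edgeR adjusted p = 0.879). H2afj had 5.99, 4.31 and 5.04 against 2.58, 5.86 and 9.36 (0.17, SE 0.47, adjusted p = 0.788).

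The 70 canonical, replication-dependent histone genes gave 58 that could be tested, and 42 of them fell and 1 rose. Over the 47 with more than 3 counts in the unselected libraries together, the median log2 fold change was −6.09, or −5.83 with the 9 genes at 0 in all polyA libraries set at the bound that 3 counts over the group allow. In the 36 of these with a stem-loop found by the search the median with bounds was −5.80, and in the 11 without it −5.85. Hist1h1e, a linker histone, had a log2 fold change of −8.28 (edgeR adjusted p = 1.82e-22). Hist1h2bc, a canonical H2B gene, was the 1 that rose (0.56, adjusted p = 3.81e-05). Reads shared between near-identical histone genes make single members of this family uncertain.

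**Figure D2:**
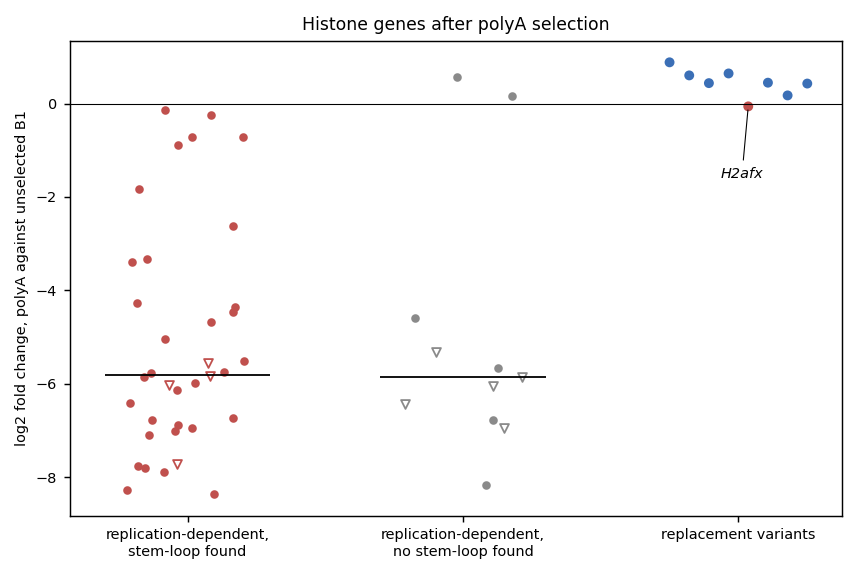
Log2 fold change of polyA against unselected liver libraries of batch 1 for replication-dependent histone genes with and without the stem-loop and for the 8 replacement genes; open triangles are upper bounds for genes at 0 in polyA libraries and lines are medians. The 8 replacement genes lie between −0.06 and 0.88, with H2afx the lowest of them.

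Genes that place or exchange these variants moved both ways after polyA selection. Of 27 deposition factors 14 rose and 8 fell, with a median of 0.37. The 4 largest changes were falls in Srcap (−1.50), the H2A.Z remodeller, Ubn2 (−1.30), a partner of the H3.3 chaperone HIRA, Atrx (−0.9995), which loads H3.3 with DAXX, and Ep400 (−0.96), which encodes p400. Of 6 stem-loop processing factors 5 were tested: Lsm10 rose by 0.92, Casp8ap2 (−1.04) and Npat (−0.88) fell, and the other 2 did not pass. Of 8 cell cycle genes, Cdk1 (0.78) and Pcna (0.44) rose and Mki67 fell (−0.96). The calls were made by the same edgeR fit. The 4 Kupffer cell markers summed to 67.4 to 73.9 normalised CPM in polyA and 95.7 to 99.3 in unselected RNA, and the 4 sinusoidal endothelial markers to 62.5 to 65.0 and 125.5 to 133.5. Of the 6 hepatocyte markers 4 rose and 2 fell (sums of 65890 to 72340 and 58140 to 58900), and 3 of 4 erythroid markers rose (294.8 to 405.9 and 238.5 to 251.3). All 4 fibroblast and stellate markers fell (61.2 to 72.2 and 77.55 to 90.9), as did 1 of 4 lymphocyte markers, with none rising. Their part in the histone values was not tested.

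The rRNA pull-down libraries were compared with unselected RNA of batch 2, since pull-down keeps RNA without a tail. Of the 8 genes 5 rose and none fell, against 32.8% of all genes called and 17.5% called higher. H3f3a had 46.7, 47.4 and 47.5 normalised CPM unselected and 52.0, 68.7 and 75.2 as lowest, median and highest in pull-down (log2 fold change 0.56, SE 0.09, edgeR adjusted p = 4.08e-06). H1f0 (0.39, adjusted p = 1.15e-06), H2afv (0.39, 0.00514), H3f3b (0.30, 0.000988) and H2afz (0.44, 0.0404) rose as well, by edgeR. H2afy (0.15, adjusted p = 0.202), H2afx (−0.37, 0.392) and H2afj (0.18, 0.834) did not pass. The H2afz call was lost without each unselected library in turn (adjusted p 0.0727 to 0.143). With library totals in place of TMM the H3f3b (0.13, adjusted p = 0.147) and H2afv (0.21, 0.195) calls were lost as well, which leaves 2 of the 8. The H2afz call was also lost with size factors of the DESeq2 type (0.098), DESeq2 (0.0529) and the compared groups alone (0.141), the H2afv call with DESeq2 (0.0553) and the H3f3b call with the compared groups alone (0.158). H2afy passed without unselected replicate 3 (0.28, 0.0316). The Kupffer markers summed to 140.1 to 200.8 here and 93.7 to 99.7 in unselected RNA, and the endothelial markers to 145.9 to 182.9 and 124.1 to 131.6. Of the 6 hepatocyte markers 4 rose (median 0.35), and 2 of 4 erythroid markers (sums of 294.1 to 427.9 and 208.7 to 222.9). Of 4 fibroblast and stellate markers 2 rose and 1 fell. Their part in these values was not tested.

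The rRNA digestion libraries, in which an enzyme removes rRNA bound to probes, were compared with the same unselected RNA. By edgeR 1 of the 8 rose and 1 fell, against 14.7% of all genes called (7.08% higher, 7.64% lower). H3f3a rose by 0.33 (SE 0.08, adjusted p = 0.00716), from 46.7, 47.4 and 47.5 to 54.6, 59.3 and 62.1 as lowest, median and highest. H3f3b fell by 0.23 (SE 0.07, edgeR adjusted p = 0.0206), from 55.6, 57.7 and 61.9 to 45.3, 50.8 and 55.8, with 1 unselected value inside the digestion range. That call was lost without unselected replicate 2 (adjusted p = 0.0636) or 3 (0.151), with library totals (0.131) and with no filter on low counts (0.122). With library totals 2 of the 8 genes were called higher and none lower. H2afz (0.08), H2afv (0.02), H1f0 (0.04) and H2afy (0.00) lay within their SEs of 0, and the signs of H2afv, H1f0 and H2afy turned with size factors of the DESeq2 type. The 4 erythroid markers summed to 2.67 to 4.42 normalised CPM in digestion and 208.7 to 222.9 in unselected RNA. The Kupffer markers summed to 69.2 to 77.7 and 93.7 to 99.7, and the endothelial markers to 108 to 114.5 and 124.1 to 131.6. Of 4 fibroblast and stellate markers 2 fell and none rose. The part of these markers in the histone values was not tested.

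H2afx and H2afj had the largest log2 fold changes of the 8 in digestion. H2afx had 4.43, 2.83 and 2.63 normalised CPM unselected and 5.04, 5.48 and 5.77 in digestion, and H2afj 5.24, 4.85 and 3.64 against 9.35, 10.7 and 11.6. The digestion values lay above the unselected ones in both genes, which rest on 13 to 22 (H2afx) and 18 to 26 counts (H2afj) per unselected library. The share of all genes that separate in this way was not counted. The log2 fold changes of 0.70 (SE 0.28, adjusted p = 0.0883) and 1.17 (SE 0.45, adjusted p = 0.0843) missed the edgeR threshold. Without the shallow pull-down library, which shares the fit, they were 0.69 (adjusted p = 0.0237) and 1.15 (0.0115), and in a fit of the compared groups alone 0.65 (0.0164) and 1.16 (0.000163). Only 1 of the 8 genes was called higher with size factors of the DESeq2 type, DESeq2, no filter or pseudogene copies. The same held without each unselected library in turn, so H2afx and H2afj did not both pass in these settings.

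Digestion was set against pull-down within batch 2, and all 8 genes differed, against 70.7% of all genes called (34.7% higher, 36% lower). H2afx and H2afj were higher after digestion and the other 6 were lower. H2afx had a lowest, median and highest of 5.04, 5.48 and 5.77 normalised CPM in digestion and 1.99, 2.94 and 10.2 in pull-down. Its log2 fold change was 1.07 (SE 0.11, edgeR adjusted p = 3.92e-10), and 1.11 without the shallow library. H2afj was higher by 0.99 (SE 0.18, edgeR adjusted p = 1.43e-05), and DESeq2 gave 0.60 with an adjusted p of 0.0637. Without the shallow library edgeR gave 1.09, and pull-down then ran from 3.37 to 7.12 and digestion from 9.35 to 11.6, without overlap. H3f3b was lower by the widest margin of the 6 (−0.53, SE 0.04, edgeR adjusted p = 1.26e-13), and its ranges, 45.3 to 55.8 in digestion and 65.6 to 92.6 in pull-down, did not overlap. H2afv (−0.37), H2afz (−0.36), H1f0 (−0.35), H3f3a (−0.23) and H2afy (−0.15) followed. Scaling by library totals moved the median of all genes from −0.01 to 0.26 and with it 2 directions: H3f3a became 0.03 (adjusted p = 0.447) and H2afy 0.12 (adjusted p = 0.0281). H2afz (−0.09, 0.282) and H2afv (−0.10, 0.0726) then no longer passed, which leaves 5 of the 8 called.

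Other measures moved with this contrast. Of the 27 deposition factors 9 were higher and 15 lower in digestion, Srcap by 1.97 and Ruvbl1 by −0.93. The 4 erythroid markers summed to 2.67 to 4.42 normalised CPM in digestion and 294.1 to 427.9 in pull-down, and the 4 Kupffer markers to 69.2 to 77.7 and 140.1 to 200.8. The endothelial markers summed to 108 to 114.5 and 145.9 to 182.9, all 4 of them lower by edgeR, and 5 of 6 hepatocyte markers (median −0.42) and 6 of 8 cell cycle genes (median −0.57) were lower as well. Of 4 fibroblast and stellate markers 1 was higher and 3 lower. The part of these in the histone values was not tested.

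**Figure D3:**
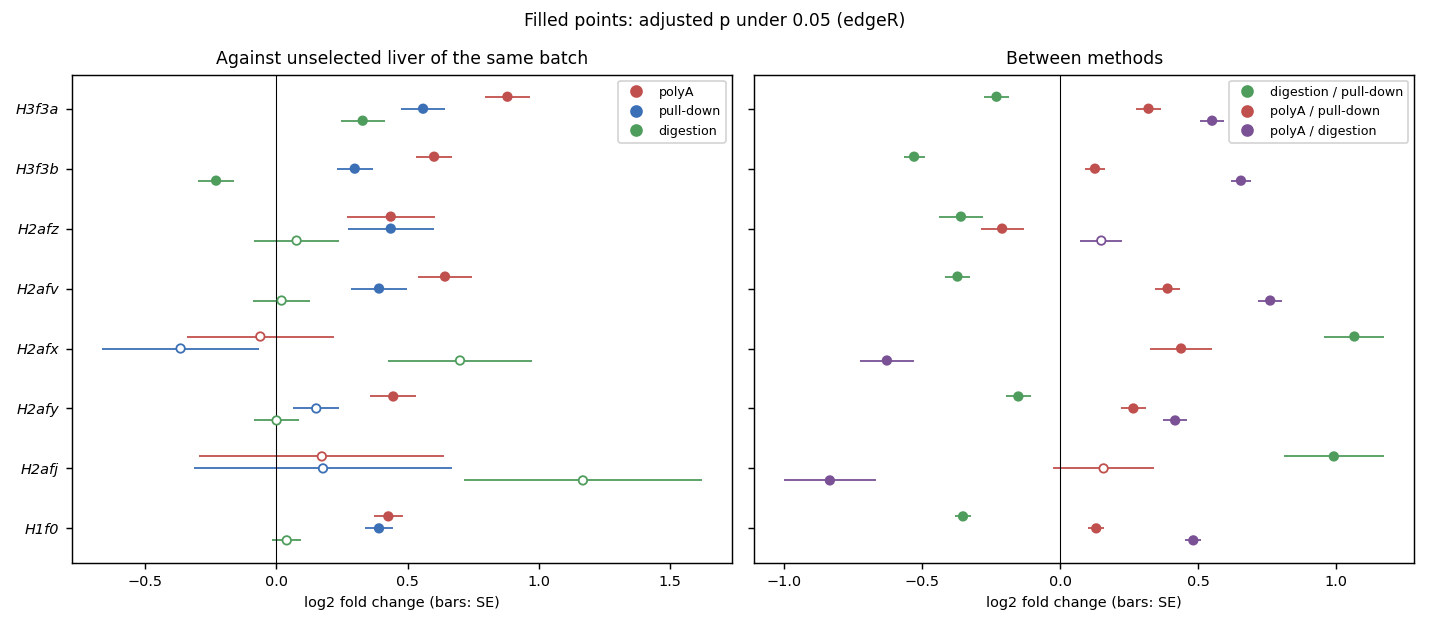
Log2 fold change with its SE for each gene, left for each method against unselected liver of its batch and right between methods; filled points passed adjusted p under 0.05. H2afx and H2afj lie to the right for digestion over pull-down (1.07 and 0.99) and the other 6 genes to the left.

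PolyA libraries could be set beside the others only across batches, so method and batch cannot be told apart there. Against pull-down 6 of the 8 genes were higher and 1 lower (background 72.6% called, 36.4% higher and 36.2% lower), and against digestion 5 were higher and 2 lower (80.6%, with 38.4% higher and 42.2% lower). The largest values against pull-down were in H2afx (0.44), H2afv (0.39) and H3f3a (0.32), followed by H2afy (0.27), H1f0 (0.13) and H3f3b (0.13). H2afz was lower (−0.21, edgeR adjusted p = 0.0176) and H2afj did not pass (0.16, 0.447). Against digestion H2afv (0.76), H3f3b (0.66), H3f3a (0.55), H1f0 (0.48) and H2afy (0.42) were higher, H2afj (−0.83) and H2afx (−0.63) lower, and H2afz did not pass (0.15, edgeR adjusted p = 0.0728). With its near-identical copies added H2afz passed (0.25, adjusted p = 0.000313), and with library totals it was −0.10 (0.236). Taken relative to the unselected libraries of each batch, the H2afx and H2afj differences from digestion were −0.76 (adjusted p = 0.115) and −0.996 (0.233), and 3 genes in place of 7 differed from pull-down. Those 3 were H3f3a (0.32, edgeR adjusted p = 0.0236), H3f3b (0.30, 0.00883) and H2afy (0.29, 0.0497). The calls of H2afz (−6.96e-06, 1), H2afv (0.25, 0.232), H2afx (0.30, 0.631) and H1f0 (0.04, 0.772) were lost. Against pull-down, 4 of 4 Kupffer (median −1.13) and 4 of 4 endothelial markers (−0.93) were lower by edgeR. Of 4 erythroid markers 1 was higher and 2 lower. Against digestion, 4 of 4 erythroid markers were higher (median 6.64). There 1 Kupffer marker was higher and 2 lower, and 1 endothelial marker higher and 3 lower. In both comparisons 4 of 6 hepatocyte markers were higher and 2 lower. Their part in the histone values was not tested.

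The unselected libraries of the 2 batches gave no call by edgeR in any of the 8 genes or in any of 15422 genes (0%) in the fit of all liver libraries. Fitted alone, these 6 libraries gave 39 calls among 10642 genes, none of them in the 8. H3f3b, with a log2 difference of batch 2 over batch 1 of 0.18 (edgeR adjusted p = 0.883), was the 1 member at an unadjusted p under 0.05. DESeq2 called none of the members and 18 genes. The other 7 ranged from −0.16 for H2afj to 0.21 for H2afz.

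Long and short fragments were compared because the length of the insert can change which mRNAs are counted. Over all methods H3f3b and H2afz were higher in long-fragment libraries and H2afy lower, 3 of 8 genes against 46.3% of 14454 genes called, 25.7% higher and 20.5% lower (edgeR). H2afz was higher by 0.55 (SE 0.08, adjusted p = 1.72e-05), H3f3b by 0.33 (SE 0.04, 2.80e-07) and H2afy lower, with −0.13 (SE 0.04, 0.0104), by edgeR. The H2afz value leaves out its near-identical copies, which drew counts mainly in short and medium fragments. H3f3a (−0.01), H2afv (0.08), H1f0 (0.06), H2afx (−0.23) and H2afj (−0.26) did not pass. Without the shallow library H2afx (−0.26, adjusted p = 0.0124) and H2afj (−0.34, 0.0381) passed too. In the same contrast 4 of 4 Kupffer, 3 of 4 endothelial and 3 of 4 erythroid markers were higher in long fragments and none lower, with medians of 0.21, 0.15 and 0.28. Their part in the histone values was not tested.

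In polyA libraries 6 of the 8 genes differed by length, against 56.3% of all genes called (27.7% higher, 28.7% lower). H2afj was lower in long fragments, with 4.19, 5.48 and 2.58 normalised CPM (slow, medium and fast ramp, an order kept below) against 6.47, 8.72 and 6.77 in short ones (−0.89, SE 0.13, edgeR adjusted p = 0.000149). H2afx was also lower, with 3.00, 3.01 and 2.61 against 4.20, 4.36 and 3.65 (−0.53, SE 0.11, edgeR adjusted p = 0.0015). In both genes every long-fragment library was below every short-fragment library, and the share of all genes that separate in this way was not counted. H2afz went the other way, with 33.2, 37.3 and 26.4 in long and 19.6, 23.1 and 17.6 in short fragments (0.66, SE 0.04, edgeR adjusted p = 2.60e-07). With the counts of its near-identical copies added, the H2afz difference was 0.42 (adjusted p = 1.65e-05). H3f3b (0.42) and H3f3a (0.16) were higher and H2afy (−0.21) lower by the same test, and H2afv (−0.12) and H1f0 (−0.03) did not pass.

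In pull-down libraries only H2afz passed by edgeR (0.78, SE 0.14, adjusted p = 0.019), against 6.23% of genes (4.59% higher, 1.64% lower), with 43.3, 40.0 and 33.4 in long and 17.8, 21.7 and 25.1 in short fragments. This call was lost without pull-down replicates 2, 7 or 8 in turn (adjusted p = 0.212, 0.073 and 0.197), which leaves 0 of 8 called. Adding the near-identical copies of H2afz took its short-fragment counts from 509, 697 and 831 to 643, 813 and 833. The long-fragment counts went from 55, 1368 and 1127 to 55, 1369 and 1127. With copies added 1 of the 8 genes was called, higher in long fragments. Without the shallow library 5 passed: H2afz (0.73), H3f3b (0.38), H2afx (−0.64), H2afj (−0.42) and H2afy (−0.27). With it the last 4 were at 0.29, −0.43, −0.05 and −0.30, and H3f3a (−0.15), H2afv (0.05) and H1f0 (0.04) did not pass.

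In digestion libraries 5 genes passed, against 18.3% of all genes called (8.97% higher, 9.34% lower). H2afv (0.27), H3f3b (0.21), H2afz (0.19) and H1f0 (0.14) were higher in long fragments and H3f3a lower (−0.13), by edgeR. With its copies added the H2afz difference was 0.12 (adjusted p = 0.0223). H2afx (0.08, adjusted p = 0.542), H2afj (−0.00, 0.990) and H2afy (0.04, 0.481) did not pass. DESeq2 called 2 of the 8, H3f3a and H3f3b. Within the methods, long over short fragments gave 2 hepatocyte markers of 6 higher and 1 lower in polyA, 0 and 1 in pull-down and 1 and 4 in digestion. Of the 4 Kupffer markers 1, 2 and 1 were higher and none lower, in the same order. Their part in these values was not tested.

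The length effect differed between digestion and polyA in 7 of the 8 genes, against 35.1% of all genes called, 18.1% higher and 17% lower (edgeR interaction term). The difference was 0.62 in H2afx (adjusted p = 0.017), 0.41 in H2afv (0.000233), 0.27 in H2afy (0.00151) and 0.19 in H1f0 (0.0118). It was −0.47 in H2afz (0.0209), −0.27 in H3f3a (0.00623) and −0.19 in H3f3b (0.0358). For H2afj it was 0.86 and did not pass (0.0632), and without the shallow library it was 0.87 and passed (0.00754). With the copies of H2afz added, its difference was −0.30 (0.0491). The H2afx call was lost with DESeq2 (0.0874), that of H1f0 with size factors of the DESeq2 type (0.0517) and that of H3f3b with library totals (0.0895) or no filter (0.188). Between digestion and pull-down H2afz (−0.61, edgeR adjusted p = 0.0137) and H2afy (0.30, 0.00321) differed, 2 of 8 against 16.2% (6.77% higher, 9.42% lower). The remaining 6 members ranged from −0.16 for H3f3b to 0.54 for H2afx. Without the shallow library 6 of the 8 passed. Between pull-down and polyA no member passed by edgeR, against 3.79% of genes (2.08% higher, 1.71% lower), with 2 at an unadjusted p under 0.05 and 2 called by DESeq2. The values ran from −0.21 in H3f3a to 0.82 in H2afj. By the same test the length effect of 3 of 4 Kupffer and 2 of 4 endothelial markers was higher in pull-down than in polyA (medians 0.43 and 0.27), and lower in digestion than in pull-down (−0.39 and −0.21). Between digestion and polyA 1 of 4 Kupffer, 1 of 4 endothelial and 1 of 4 erythroid markers differed, each higher in digestion, and 1 of 6 hepatocyte markers, lower. The part of these markers in the histone values was not tested.

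**Figure D4:**
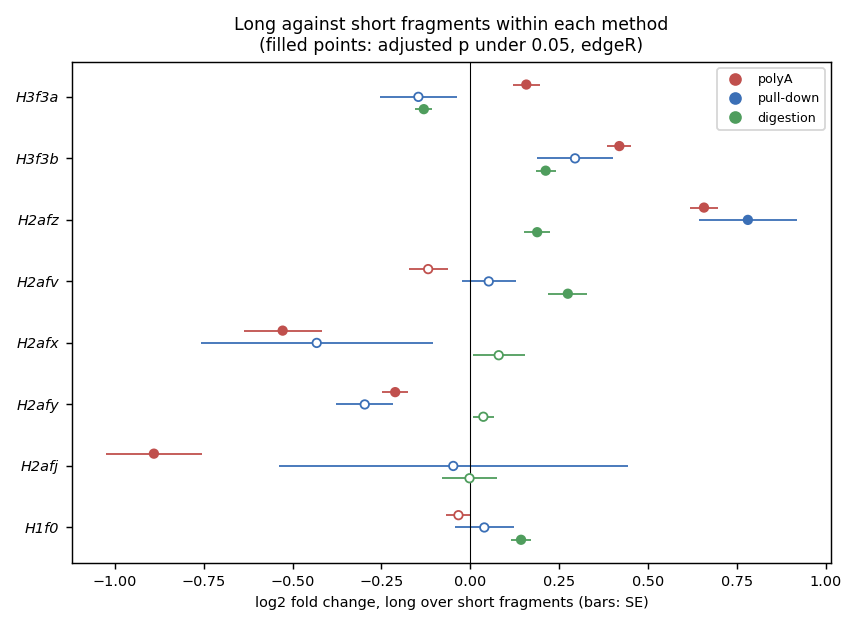
Log2 fold change of long over short fragments, with its SE, for each gene within each method; filled points passed adjusted p under 0.05. In polyA libraries H2afj (−0.89) and H2afx (−0.53) lie to the left and H2afz (0.66) to the right, and in digestion all 8 lie between −0.13 and 0.27.

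The PCR ramp rate gave no call in the 8 genes by edgeR, with none at an unadjusted p under 0.05, and 1 of 14454 genes was called (0.00692%). Fast minus slow log2 values ran from −0.07 in H2afz to 0.01 in H2afv. DESeq2 also called none of the 8.

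The 2 genes for H3.3 and the 2 for H2A.Z were compared as ratios within a library, which scaling of the libraries hardly touches. There were 16 comparisons, each an exact test, with Benjamini-Hochberg adjustment over all of them. For both ratios, those against unselected RNA permuted 9 libraries of every ramp and length with 3 of slow ramp and medium fragments. They do not adjust for ramp or length, so their p-values do not separate selection from these. The ratio of H3f3b to H3f3a was higher in long than in short fragments in 9 of 9 matched pairs, by 0.35 ± 0.12 (log2, SD). The two-sided exact sign-flip p was 0.00391, the smallest that 9 pairs allow (adjusted 0.0146). In pull-down the ratio was −0.10 ± 0.05 in short, 0.08 ± 0.04 in medium and 0.36 ± 0.10 in long fragments (SD, n = 3 each), and the 3 lengths did not overlap. It was lower in digestion than in pull-down in 9 of 9 pairs (−0.31 ± 0.06, exact p = 0.00391, adjusted 0.0146) and lower than in unselected RNA of the batch by 0.50 (exact permutation p = 0.00455, the smallest possible, adjusted 0.0146). PolyA libraries were 0.20 below pull-down in 9 of 9 pairs (exact p = 0.00391, adjusted 0.0146), 0.11 above digestion in 8 of 9 (exact p = 0.0117, adjusted 0.0268) and 0.22 below unselected RNA (exact p = 0.0273, adjusted 0.0486). The comparisons of polyA with pull-down and digestion cross batches, and the same ratio in unselected RNA was 0.08 to 0.17 in batch 1 and 0.25 to 0.38 in batch 2. The call of polyA against unselected RNA was lost with pseudogene copies added (adjusted 0.0625), without the shallow library (adjusted 0.0545), which changes only the adjustment, and without each unselected replicate in turn. Pull-down against unselected RNA (−0.19, exact p = 0.164) and the ramp (0.00, exact p = 0.867) did not pass. In medium fragments alone, the length of the unselected libraries, the ratio was −0.17 to 0.02 in polyA, 0.05 to 0.12 in pull-down and −0.31 to −0.21 in digestion.

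The ratio of H2afv to H2afz was higher in polyA than in pull-down in 9 of 9 pairs (0.61 ± 0.26, exact sign-flip p = 0.00391, adjusted 0.0146) and than in digestion in 8 of 9 (0.62 ± 0.44, exact p = 0.00781, adjusted 0.0208). Both comparisons cross batches, and in unselected RNA this ratio had a mean of −0.63 in batch 1 and −0.97 in batch 2. It was lower in long than in short fragments in 7 of 9 pairs (−0.50 ± 0.48, exact p = 0.0273, adjusted 0.0486). That call was lost with the pseudogene copies added (−0.33, adjusted 0.0625) without the shallow library (−0.41, 0.0972) and, through the adjustment alone, without each unselected replicate of batch 1 in turn (0.0547). Group means in long and short fragments were −0.86 and −0.08 in polyA and −1.40 and −0.60 in pull-down, but −0.97 and −1.05 in digestion. Pull-down, digestion and polyA against unselected RNA (−0.05, −0.06 and 0.21), digestion against pull-down (−0.01) and the ramp (0.09) did not pass the exact tests (adjusted p 0.415 to 0.953).

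**Figure D5:**
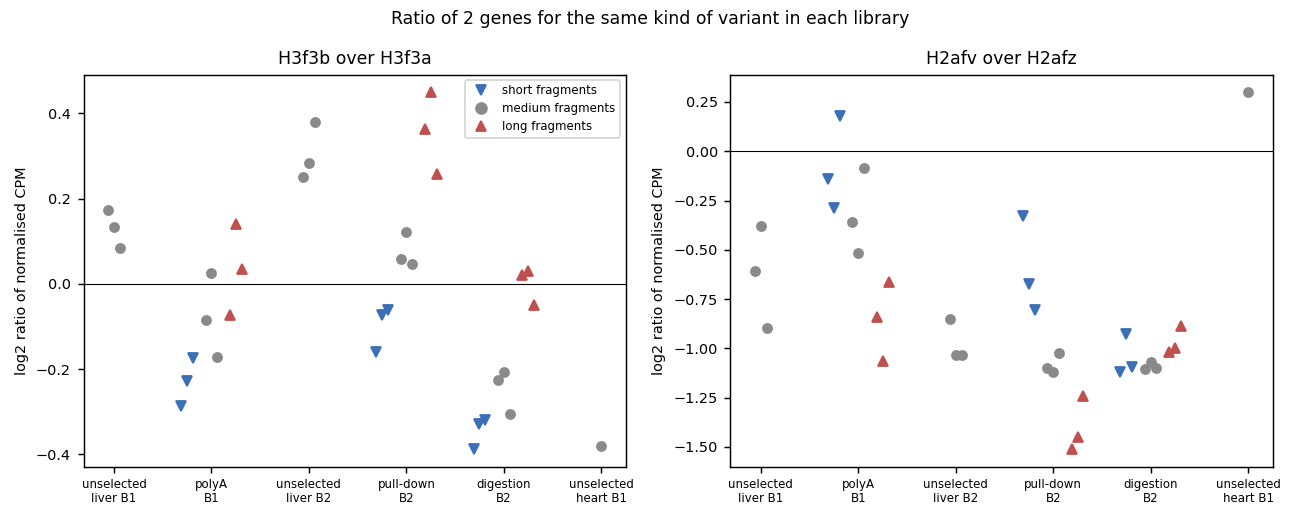
Log2 ratio of counts in each library for the 2 H3.3 genes (left) and the 2 H2A.Z genes (right), by method, batch and fragment length. The axis label names normalised CPM, but the ratios were taken on counts. In each method the long-fragment libraries lie above the short-fragment ones in the left panel.

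The heart library was set beside the 3 unselected liver libraries of batch 1, without a test because heart has 1 library. Past 2-fold in either direction were 2 of the 8 genes, H2afy and H2afz, against 49.9% of 12828 genes, and both were lower in heart. H2afy had 10.1 normalised CPM in heart and 34.4, 35.3 and 27.8 in liver (log2 −1.68), and H2afz 8.23 against 16.2, 17.7 and 20.3 (−1.13). H3f3a lay inside the liver range, at 46.9 in heart and 46.3 to 48.7 in liver. H3f3b (36.0 against 49.5 to 54.9), H1f0 (34.1 against 45.5 to 49.1), H2afj (2.74 against 4.31 to 5.99), H2afx (2.39 against 3.23 to 3.99) and H2afv (10.1 against 10.6 to 13.6) were below all 3 liver libraries. Of the 8 genes 7 were outside the liver range, against 88.2% of all genes. The median over all genes was −0.15 here and 0.09 with size factors of the DESeq2 type, under which H3f3a was 0.23, H2afv 0.04 and H2afz −0.89, leaving H2afy as the 1 gene past 2-fold. The log2 ratio of H3f3b to H3f3a was −0.38 in heart and 0.08 to 0.17 in liver, and that of H2afv to H2afz was 0.30 in heart and −0.90 to −0.38 in liver. Past 2-fold in heart, 3 of 4 Kupffer (median log2 −5.785) and 3 of 4 endothelial markers (−4.59) were lower and none higher. All 4 fibroblast and stellate markers were past 2-fold higher (2.18), and none of the 4 erythroid markers was past 2-fold. Their part in the histone values was not tested. A smaller share of a cell type and less RNA per cell cannot be told apart in such tissue samples.

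Across the 33 liver libraries H2afx and H2afj varied together (Pearson r = 0.89) and H2afv and H1f0 (0.94), while H2afx and H3f3b ran opposite (−0.57). Without the shallow library, an alternative chosen after seeing the data, these were 0.84, 0.96 and −0.69. These values describe log2 normalised CPM in libraries that share an animal and, in groups of 9, a method. Among 6360 coding genes the closest to H2afx were Erf (0.93) and Bahd1 (0.92), to H2afj Nr2f6 (0.92) and Zfp710 (0.90), to H3f3a Cyp2c37 (0.97) and Car3 (0.96), to H3f3b Ndufb6 (0.97) and Atp5f1 (0.96), to H2afz Pgrmc1 (0.85) and Ndufb4 (0.80), to H2afy Ube2q1 (0.95) and Yars (0.91), and to H1f0 Prdx5 (0.97) and Ebp (0.97). Without the shallow library the closest were the same for H3f3a, and the first-named stayed closest for H3f3b, H2afz, H2afy and H2afj. For H2afx they became Dyrk1b (0.93) and Zbtb7a (0.93), and for H1f0 Ephx1 (0.98) and Upb1 (0.97).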

How the data were processed

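The authors deposited a table of estimated counts per gene for 34 libraries; the submitters' processing notes list Salmon 1.9.0, UMI-tools 1.1.1, R 4.4.0 and build GRCm38, without saying whether reads were collapsed by molecular identifier. Those expected counts were rounded to whole counts here. Of 51368 identifiers 50896 matched GENCODE M21. Main tests were edgeR 4.0.16 quasi-likelihood fits (R 4.3.3) with TMM and filterByExpr, Benjamini-Hochberg over all genes, over all 33 liver libraries for methods (ramp and length as covariates), the 27 selected libraries for length and ramp over all methods and for the interactions, and 9 libraries within a method. Ratios were taken on counts, with a pseudocount of 0.5 counts. DESeq2 1.42.0, other scalings, no filter, pseudogene copies added (BLAST 2.17.0) and left-out libraries were alternatives. The fit of polyA against unselected RNA was tested on simulated data. Unselected replicates differed by more than sampling noise (chi-square per degree of freedom 1.41 to 3.85). The 8 genes, the lists and the rule for naming genes (all 8 in every comparison, at most the 4 largest called changes of another list, the 2 most alike genes) were chosen with earlier results of these data known. Protein sequences were not used here. The genes most alike to H2afv are not reported here.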

Additional observations from a re-analysis of the deposited data

Results flagged for a closer look

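In 30 sets of 9 libraries (a gene within polyA, pull-down or digestion, and the ratios), 6 had a library far from the other 8, where chance gives about 1 in 20. The shallow pull-down library held 4 of them: H2afj at 32.31 normalised CPM (others at most 7.12), H2afx at 10.24 (others at most 3.17), H1f0 at 67.77 (others at most 59.7) and H3f3a at 52.01 (others at least 65.2). The pull-down library with a medium ramp and long fragments was highest for H3f3b, at 92.64 against at most 78.0, and the polyA library of long fragments and slow ramp for H3f3a, at 103.1 against at most 88.9.

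The effect of long over short fragments differed between digestion and polyA by the interaction term (edgeR, adjusted p under 0.05): H2afx by 0.6188, H2afv by 0.4089, H2afy by 0.2665, H1f0 by 0.1926, H3f3b by −0.1914, H3f3a by −0.273 and H2afz by −0.4658 on the log2 scale. It differed between digestion and pull-down for H2afz (−0.6084) and H2afy (0.3019).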

How the results depend on the processing

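Of the log2 fold changes of single genes under other settings, 920 kept their direction and side of the threshold, 33 gained a call, 38 lost one and 49 changed sign. The number of the 8 genes called moved by over 1.5 times as follows. For pull-down against unselected RNA it was 2 with library totals, 3 with DESeq2 and 3 with only the compared groups. For digestion against unselected RNA it was 1 with no filter, 4 without the shallow library, 4 with only the compared groups and 1 to 2 without single unselected libraries. It was 5 with library totals for digestion against pull-down, 3 for polyA against pull-down relative to each batch's unselected libraries, and 5 without the shallow library for length over all methods. For length within pull-down it was 3 with DESeq2, 5 without the shallow library and 0 to 5 over single left-out libraries, and within digestion 2 with DESeq2. For the difference in length effect, pull-down minus polyA gave 1 with size factors of the DESeq2 type and 2 with DESeq2, and digestion minus pull-down 6 without the shallow library. In heart 1 gene was past 2-fold with those size factors and 1 with library totals, and 2 to 3 without single liver libraries.

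The ratio of H3f3b to H3f3a, polyA minus unselected, was −0.2214 with pseudogene copies and −0.2209 without the shallow library, and −0.2438 to −0.1999 without single libraries, each above the adjusted threshold. The ratio of H2afv to H2afz, long minus short, was −0.3311 with pseudogene copies and −0.4104 without the shallow library. It changed sign for digestion minus pull-down (0.02875, pseudogene copies) and pull-down minus unselected (0.006531 without the shallow library, −0.08457 to 0.007235 without single libraries).

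All sign changes of single genes but that of H2afy in digestion against pull-down had adjusted p above 0.05 under the alternative. With library totals they were H3f3a 0.03398 and H2afy 0.1152 (digestion against pull-down), H2afy −0.02344 and H2afj −1.26e-05 (pull-down against unselected) and H2afz −0.09798 (polyA against digestion). With size factors of the DESeq2 type, DESeq2 and only the compared groups, digestion against unselected gave H2afv −0.02638, −0.0245 and −0.05419, H2afy −0.04537, −0.04409 and −0.05403, and H1f0 −0.005949, −0.008098 and −0.01198. H2afy there ran from −0.07453 to 0.1249 without single unselected libraries. H2afj was −0.2401 with DESeq2 and −0.004429 relative to unselected libraries in polyA against pull-down. H2afx in polyA against unselected ran from −0.1297 to 0.01902 without single libraries. Between unselected batches H3f3a ran from −0.01321 to 0.02257, H2afx from −0.4107 to 0.005142 and H2afy from −0.09357 to 0.1059 without single libraries.

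For length over all methods H3f3a was 0.001937 with no filter, 0.0001673 with DESeq2 and 0.01006 without the shallow library, and H2afj 0.09878 with DESeq2. For the ramp without that library H2afx was 0.01054 and H2afj 0.009334. Within polyA H1f0 ran from −0.05881 to 0.006224 without single libraries. Within pull-down DESeq2 gave H2afx 0.1711 and H2afj 0.9225, H2afj ran from −0.4207 to 0.3501 and H1f0 from −0.00656 to 0.07962 without single libraries, the lowest of each without the shallow one. Within digestion H2afj was 0.005688 with no filter and ran from −0.08304 to 0.1076 without single libraries. For differences in length effect, pull-down minus polyA gave H2afx −0.06065 without the shallow library and H1f0 −0.005082 (size factors) and −0.01372 (DESeq2), and digestion minus pull-down H2afj −1.162 with DESeq2. Apart from settings that use fewer libraries or genes, the cause was not tested.

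The unselected batches share replicate numbers, but same-numbered libraries did not deviate together (r −0.0002, −0.15 and −0.24), and with the number as a replicate block 0 of the 8 genes and 91 of 10642 genes were called, against 0 and 39 in the same 6 libraries without it. H2afx and H2afj had 13 to 30 counts in each unselected liver library.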
